A study of Mus musculus with 24 samples.

Results

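Akp3, Alpi and Alpl are 3 alkaline phosphatase genes of the mouse, chosen here by name and taken from 25410 gene symbols measured by RNA sequencing in the duodenum. Each had a single entry per library, and all 3 passed the filter on low values, which asked for 0.5 RPKM in 6 of 24 libraries and left 20006 genes. RPKM is the read count scaled to transcript length and library size. The name intestinal alkaline phosphatase applies to Akp3 and Alpi; Alpl encodes the tissue-nonspecific enzyme, and the data set it apart from the other members by level as well.

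All mice were male, 8 weeks old and Cyp27b1-/-. Cyp27b1 turns a metabolite of vitamin D into the hormone, 1,25-dihydroxyvitamin D3 (1,25(OH)2D3, written 1,25D), so the vehicle groups lack their own hormone too. From weaning at 3 weeks they ate a purified diet deficient in vitamin D. The rescue diet held 2% calcium, 1.25% phosphorus and 20% lactose, and the normal diet held 0.47% calcium and 0.3% phosphorus. Mice were injected with 2 ng of 1,25D per g body weight or with vehicle, and the duodenum was taken 6 h later. This gave 4 groups of 6 libraries: 1,25D on the rescue diet, vehicle on the rescue diet, 1,25D on the normal diet and vehicle on the normal diet. No wild type is analysed here, whole duodenum was used, and the labels do not tie libraries to animals (12 mice per diet and 8 injected per group are stated), so the tests weigh differences against the spread of these libraries, which may be technical.

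Alkaline phosphatases are zinc and magnesium enzymes that remove phosphate groups at the outer face of the cell, where a glycosylphosphatidylinositol (GPI) lipid anchor holds them. The intestinal enzymes sit on the brush border of enterocytes and are classic markers of villus maturation. Their known substrates include dietary phosphate esters, extracellular nucleotides and bacterial endotoxin, and raised intestinal alkaline phosphatase activity is an old readout of vitamin D action in the gut. In the mouse, Akp3 encodes the enzyme associated with the duodenum, Alpi the enzyme found more widely along the intestine, and Alppl2 a relative best known from the early embryo. Alpl acts in bone, where it breaks down pyrophosphate, and in liver, kidney and white blood cells.

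Among the protein-coding genes of the RefSeq annotation, Alppl2, Alpi and Akp3 lie next to each other in this order on chromosome 1. Genes of other kinds between them were not looked for. Alpl lies on chromosome 4. The 3 promoters of the chromosome 1 genes are shown because they share a stretch of letters a short way before the transcription start. They are given 5′ to 3′ on the gene's strand, from RefSeq on GRCm38.p6, at chr1:87124704-87125003 on the plus strand for Akp3, chr1:87101557-87101856 on the minus strand for Alpi and chr1:87089879-87090178 on the minus strand for Alppl2. Capitals mark the words TTCAGTTCACAGG and GGGTGGGGCCAGG, which a comparison of these promoters found in each of them.
Akp3: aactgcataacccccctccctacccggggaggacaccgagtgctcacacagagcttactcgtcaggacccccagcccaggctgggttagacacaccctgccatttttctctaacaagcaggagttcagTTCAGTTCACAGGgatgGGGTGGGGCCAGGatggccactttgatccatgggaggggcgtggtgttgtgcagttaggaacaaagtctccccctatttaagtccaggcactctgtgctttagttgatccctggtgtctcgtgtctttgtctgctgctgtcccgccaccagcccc
Alpi: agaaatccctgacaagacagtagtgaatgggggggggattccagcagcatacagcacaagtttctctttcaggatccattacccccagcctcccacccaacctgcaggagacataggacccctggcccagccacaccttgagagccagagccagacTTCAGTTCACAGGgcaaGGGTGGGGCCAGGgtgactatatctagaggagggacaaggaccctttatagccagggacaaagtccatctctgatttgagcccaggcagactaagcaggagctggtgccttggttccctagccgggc
Alppl2: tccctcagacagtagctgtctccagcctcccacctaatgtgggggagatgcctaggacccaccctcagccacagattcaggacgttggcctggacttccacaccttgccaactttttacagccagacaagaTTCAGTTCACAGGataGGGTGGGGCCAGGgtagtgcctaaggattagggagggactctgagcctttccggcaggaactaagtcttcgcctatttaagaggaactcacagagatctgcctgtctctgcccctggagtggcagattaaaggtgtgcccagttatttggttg
The word TTCAGTTCACAGG began at position -122 in Akp3, -94 in Alpi and -119 in Alppl2, counted from the transcription start, and on both strands it occurred in 10 of 32851 mouse promoter windows of this length (0.0304%). GGGTGGGGCCAGG followed at -105, -77 and -103 and occurred in 16 of 32851 windows (0.0487%). Both counts include the 3 promoters in which the words were found. Inside the first word lies AGTTCA, a hexamer of the kind bound by hormone receptors such as the vitamin D receptor. Akp3 carried it 3 times in a row, starting at -129, -124 and -119, each copy sharing its last letter with the next, while Alpi and Alppl2 had 1 copy each; 14.0% of windows hold it. A pair of such hexamers in the same direction with 3 letters between them (DR3), each either AGGTCA or AGTTCA or else GGTTCA or finally GGGTCA, on either strand, was in none of the family's windows and in 13 of 32851 windows (0.0396%). TATTTAAG lay at -31 in Akp3 and -30 in Alppl2 (1.01% of windows), and neither long word was in the Alpl windows. These matches describe letters in a short window and nothing about binding.

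Akp3 and Alpi were among the most abundant messages of this tissue. By mean RPKM over the 24 libraries Akp3 ranked 138 and Alpi 203 of 25410 symbols, at 458 and 318 RPKM, and together they held 0.0173% to 0.244% of the summed RPKM of a library. Alppl2 ranked 9584 at 4.20 RPKM and Alpl 17170 at 0.711 RPKM. RPKM is scaled by length, so these levels can be set beside each other within the limits of the authors' annotation, which is not given in the sources used here.

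Depth was read from the steps between low RPKM values and came to about 14205000 to 38614000 reads per library. Of the low values that came to 1 to 5 reads at that depth, 67.1% to 78.9% lay within 3% of a whole read. On that estimate Akp3 rested on about 1368 to 39682 reads per library and Alpi on 4169 to 37460, but Alpl on only 6 to 155. Cyp24a1, the enzyme that breaks down 1,25D and a direct target of its receptor, checked the injections: its medians were 441 RPKM after 1,25D and 0.237 RPKM after vehicle on the rescue diet, and 643 RPKM after 1,25D and 0.558 RPKM after vehicle on the normal diet. Rescue 1,25D replicate 5 stood apart, with 92.1 RPKM of Cyp24a1 where the other libraries of its group had 278 to 962 RPKM, and values of Akp3, Alpi, their ratio and Alppl2 on the rescue diet are also given without it. Markers fitted the labelled tissue: the 5 duodenal genes Pdx1, Gata4, Cdx2, Onecut2 and Cybrd1 summed to 99.7 to 242 RPKM, and 6 ileum and colon genes to 1.19 to 8.17 RPKM. On the normal diet the duodenal sum had a median of 198 RPKM after 1,25D and 143 RPKM after vehicle, and limma called 1 of 5 higher. On the rescue diet the medians were 192 and 173 RPKM, with none called. Whether the sampled stretch of duodenum differed between groups was not tested.

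On the normal diet, the comparison of 1,25D with vehicle asks how duodenal genes respond to the hormone when minerals are not supplemented. Akp3 and Alpi rose and Alpl did not pass the test. Akp3 rose 6.19-fold and Alpi 3.07-fold, so that 2 of 3 members were called higher, where 1.78% of all genes tested were (1.84% called in either direction, 0.055% lower). In bulk tissue a change in the number of cells of a type and a change of RNA per cell cannot be told apart.

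Akp3 ran from 613 to 923.7 RPKM after 1,25D (median 821), against 31.8 to 313 RPKM after vehicle (median 186). The groups did not overlap: every 1,25D library lay above every vehicle library, as for 2.13% of genes tested. The means were 777 ± 121 RPKM after 1,25D and 164 ± 108 RPKM after vehicle (SD, n = 6 each). The log2 fold change was 2.63 (SE 0.48, 95% interval 1.65 to 3.61, limma, adjusted p = 0.00226), the rank 14 of 20006 by size. The vehicle libraries spread much more widely than the 1,25D libraries, with a highest value 9.84 times the lowest against 1.51 times after 1,25D. Vehicle replicates 1 and 2, at 31.8 and 46.7 RPKM, were the lowest of the group by a wide margin.

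Alpi showed the same order at a lower level. It ran from 351 to 558 RPKM after 1,25D (median 497), against 69.6 to 268 RPKM after vehicle (median 176), again with no overlap. Its means were 471 ± 73.8 RPKM after 1,25D and 166 ± 72.6 RPKM after vehicle (SD, n = 6 each). The log2 fold change was 1.62 (SE 0.32, 95% interval 0.96 to 2.28, limma, adjusted p = 0.00535), the rank 46 of 20006 by size.

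Alpl was near the lower limit of what was tested. It ran from 0.165 to 2.27 RPKM after 1,25D (median 0.803), against 0.174 to 1.27 RPKM after vehicle (median 0.499). The groups overlapped almost fully, and the highest 1,25D library held 13.7 times the lowest. The log2 fold change was 0.25 (SE 0.30, 95% interval -0.36 to 0.86, limma, adjusted p = 0.903), an interval that includes changes of either sign. The plot of levels by library shows how far the members lie apart.

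**Figure D1:**
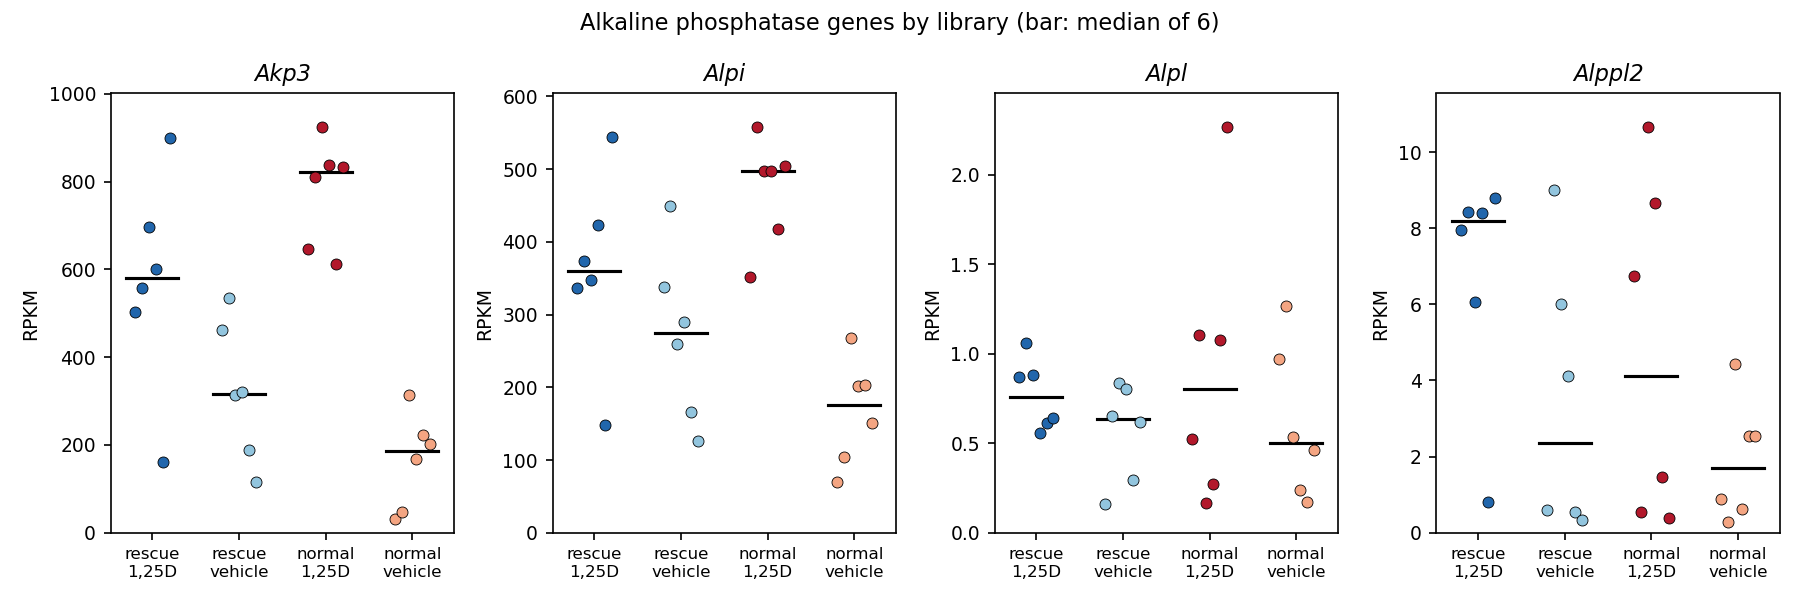
RPKM of Akp3, Alpi, Alpl and the relative Alppl2 in each of 24 libraries, on linear axes of different range, with points for libraries and bars for group medians. On the normal diet the 1,25D points of Akp3 (613 to 923.7) and Alpi (351 to 558) lie above all vehicle points (31.8 to 313 and 69.6 to 268), while Alpl and Alppl2 overlap in every pair of groups.

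On the rescue diet, where high calcium, phosphorus and lactose supply minerals without the hormone, 0 of 3 members were called by limma, and 0 of 3 had an unadjusted p under 0.05. Among all genes 0.14% were called higher in this comparison. Akp3 ran from 160 to 899 RPKM after 1,25D (median 580), against 116 to 535 RPKM after vehicle (median 316). The ranges overlapped, although 4 of 6 libraries after 1,25D lay above all vehicle libraries. The log2 fold change of Akp3 was 0.83 (SE 0.48, 95% interval -0.15 to 1.81, limma, adjusted p = 0.878).

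Alpi had 149 to 545 RPKM after 1,25D on the rescue diet (median 361), against 127 to 449 RPKM after vehicle (median 275). Only 1 library after 1,25D lay above all vehicle libraries. Its log2 fold change was 0.44 (SE 0.32, 95% interval -0.22 to 1.10, limma, adjusted p = 0.878). Alpl had 0.56 to 1.06 RPKM after 1,25D (median 0.758), against 0.16 to 0.835 RPKM after vehicle (median 0.636), with a log2 fold change of 0.29 (SE 0.30, limma, adjusted p = 0.88).

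The lowest value after 1,25D for Akp3 and for Alpi was that of rescue 1,25D replicate 5, the library low in Cyp24a1. Without it the log2 fold change of Akp3 was 1.16 (adjusted p = 0.366) and that of Alpi 0.68 (adjusted p = 0.391), so neither was called by limma. Without rescue vehicle replicate 6 Alpi had 0.24 (adjusted p = 0.945). With the mean log2 level of 10 epithelial genes as a covariate, added after seeing the data, Akp3 had 1.11 (unadjusted p = 0.0408, limma, adjusted p = 0.612) and Alpi 0.76 (unadjusted p = 0.0255, limma, adjusted p = 0.586), and with array weights Akp3 had an unadjusted p of 0.0294 (limma, adjusted p = 0.304).

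Diet was compared within each injection, and these comparisons use the same libraries as those above. Under vehicle, Akp3 averaged 322 ± 159 RPKM on the rescue diet and 164 ± 108 RPKM on the normal diet (SD, n = 6 each), a log2 fold change of 1.20 (SE 0.48, 95% interval 0.22 to 2.18, limma, adjusted p = 0.636). Alpi averaged 272 ± 117 RPKM on the rescue diet and 166 ± 72.6 RPKM on the normal diet, a log2 fold change of 0.72 (SE 0.32, 95% interval 0.06 to 1.38, limma, adjusted p = 0.677). The ranges overlapped for each gene, and 3 of 6 rescue libraries lay above all normal ones. Limma called no gene at all in this comparison (0.0% of genes tested, 1437 with an unadjusted p under 0.05). Akp3 and Alpi were among those 1437, with unadjusted p of 0.0183 and 0.0332. With the epithelial covariate the log2 fold change was 0.80 for Akp3 (unadjusted p = 0.161, limma) and 0.27 for Alpi (unadjusted p = 0.437, limma). Genes of the exocrine pancreas summed to a median of 2736 RPKM on the rescue and 16346 RPKM on the normal diet under vehicle.

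After 1,25D the order of the diets was the other way round. Akp3 averaged 570 ± 244 RPKM on the rescue diet and 777 ± 121 RPKM on the normal diet (log2 fold change -0.60, SE 0.48, limma, adjusted p = 0.75). Alpi averaged 362 ± 129 RPKM on the rescue diet and 471 ± 73.8 RPKM on the normal diet (log2 fold change -0.46, SE 0.32, limma, adjusted p = 0.729). Neither difference passed the test, and 2 genes of 20006 did (0.01%). Without rescue 1,25D replicate 5 the values were -0.27 for Akp3 (limma, adjusted p = 0.864) and -0.22 for Alpi (limma, adjusted p = 0.809). With the epithelial covariate Akp3 had -0.44 (limma, adjusted p = 0.738) and Alpi -0.28 (limma, adjusted p = 0.731). Alpl had log2 fold changes of 0.02 here and -0.02 under vehicle, with SE 0.30 each.

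The interaction tests whether the response to 1,25D differed between the diets. For Akp3 it was -1.80 on the log2 scale (SE 0.67, 95% interval -3.19 to -0.42, limma, adjusted p = 0.497) and for Alpi -1.18 (SE 0.45, 95% interval -2.11 to -0.25, limma, adjusted p = 0.521). The negative sign means a smaller rise on the rescue diet. The unadjusted p was 0.0129 for Akp3 and 0.0149 for Alpi, but over all genes limma called 1 of 20006 (0.005%), and neither member was called. A difference between the diets in the response of Akp3 or Alpi is therefore not shown by this test. Without rescue 1,25D replicate 5 the interaction was -1.47 for Akp3 (limma, adjusted p = 0.604) and -0.94 for Alpi (limma, adjusted p = 0.615). With the epithelial covariate it was -1.24 for Akp3 (unadjusted p = 0.125, limma, adjusted p = 0.975) and -0.55 for Alpi (unadjusted p = 0.266, limma, adjusted p = 0.975). For Alpl the interaction was 0.04 (SE 0.42, limma, adjusted p = 0.997).

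Ordered by mean level, Akp3 and Alpi stood highest after 1,25D on the normal diet, then after 1,25D on the rescue diet, then under vehicle on the rescue diet, and lowest under vehicle on the normal diet. Neighbours in this order did not pass the test in either gene. The difference that passed was that of 1,25D against vehicle on the normal diet, between the ends of the order; the remaining pairs of groups were not tested.

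**Figure D2:**
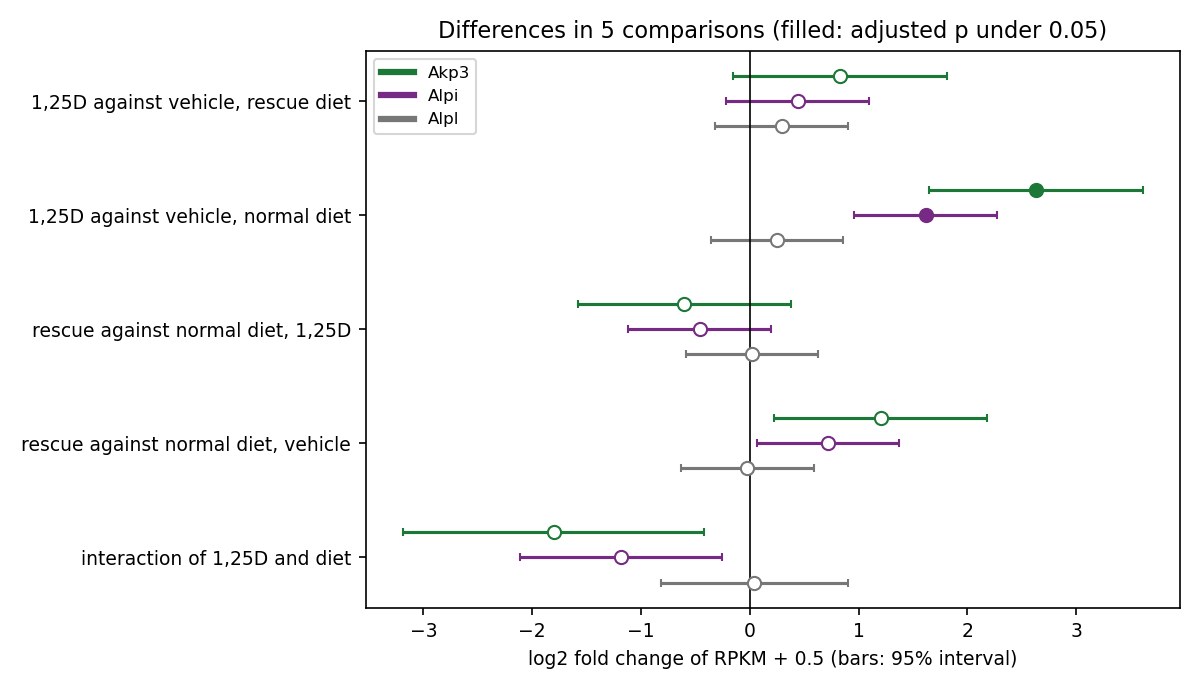
Log2 fold change of RPKM + 0.5 for Akp3, Alpi and Alpl in 5 comparisons, with 95% intervals from limma and filled points where the adjusted p was under 0.05. The 2 filled points are Akp3 (2.63) and Alpi (1.62) after 1,25D on the normal diet; all Alpl intervals include 0.

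Akp3 moved further than Alpi, which the ratio of the genes within a library shows free of scaling between libraries. On the normal diet the ratio of Akp3 to Alpi ran from 1.45 to 1.86 after 1,25D (median 1.67), against 0.448 to 1.35 after vehicle (median 0.967). The ranges did not overlap: Akp3 exceeded Alpi in 6 of 6 libraries after 1,25D and in 3 of 6 after vehicle. The mean log2 ratio was 1.01 higher after 1,25D (exact permutation test, two-sided, p = 0.00216, the smallest that this design can give; adjusted over 4 comparisons 0.00866). The lowest ratios, 0.457 and 0.448, were those of vehicle replicates 1 and 2, which also had the lowest sums of the 2 genes, 101 and 151 RPKM.

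With the rescue diet the ratio ran from 1.08 to 2.01 after 1,25D (median 1.49), against 0.915 to 1.37 after vehicle (median 1.16). Here 5 of 6 libraries after 1,25D lay above all vehicle libraries. The mean log2 ratio was 0.39 higher after 1,25D (exact permutation test, p = 0.0281, adjusted 0.0563), which missed the threshold. Without rescue 1,25D replicate 5 the difference was 0.48 (exact permutation test, adjusted p = 0.00866), and without rescue vehicle replicate 1 it was 0.44 (exact permutation test, adjusted p = 0.0346). Only these 2 of 24 fits without 1 library passed, with an adjusted p of up to 0.0996 in the others (exact permutation test). Between rescue and normal diet the mean log2 ratio differed by 0.48 under vehicle (exact permutation test, adjusted p = 0.205) and by -0.14 after 1,25D (exact permutation test, adjusted p = 0.329).

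Akp3 and Alpi varied together from library to library. Over 24 libraries Pearson's r of log2(RPKM + 0.5) was 0.97 (Spearman's rho 0.95), and with the group means taken out r was 0.94; these points share depth and the makeup of the tissue piece, and the values are descriptions. Among the 15723 genes that averaged at least 1 RPKM, Alpi was the most like Akp3. Alppl2 followed Akp3 more loosely (r 0.57), and Alpl did not (r -0.02).

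**Figure D3:**
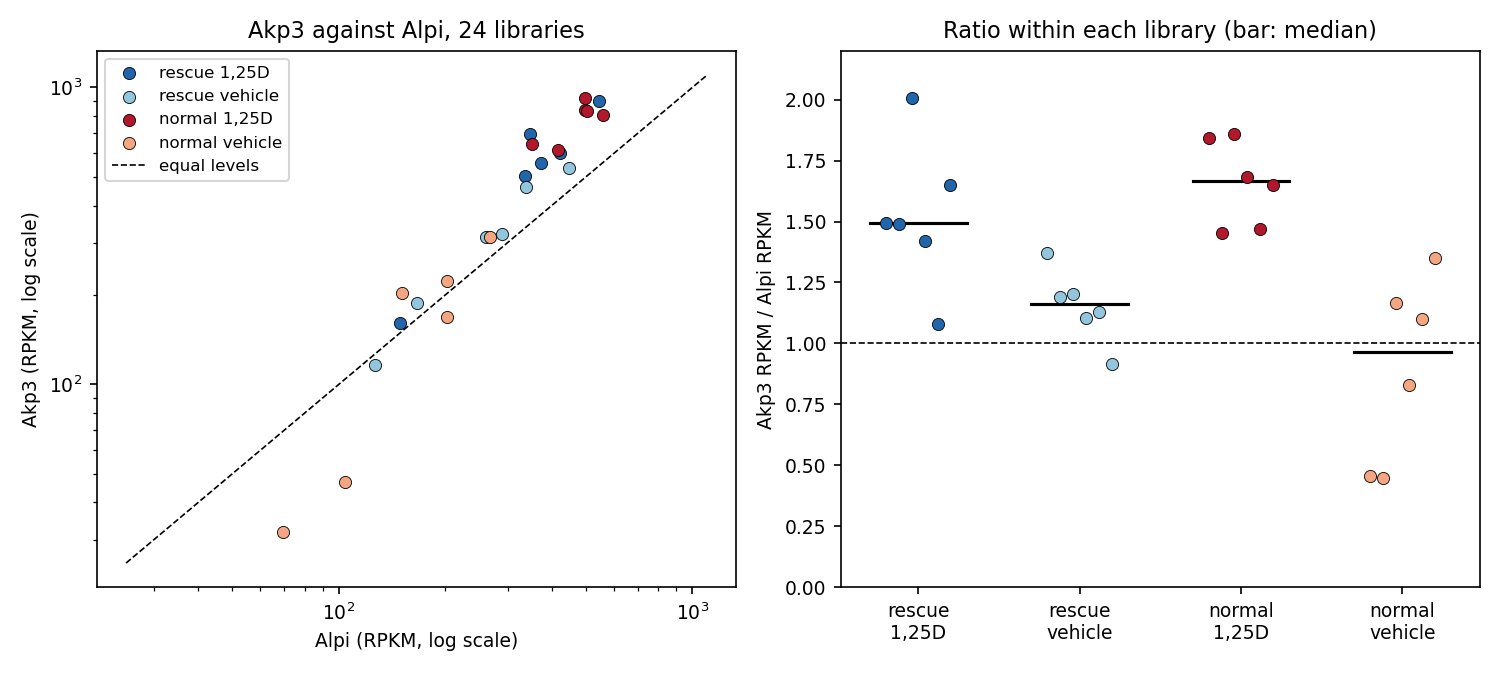
Left, Akp3 against Alpi in 24 libraries, RPKM on log axes, with a dashed line of equal levels; right, the ratio of Akp3 to Alpi in each library by group, with bars for medians. After 1,25D on the normal diet all 6 ratios lie between 1.45 and 1.86, and under vehicle on that diet they lie between 0.448 and 1.35.

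These genes are close enough in sequence for some reads to match more than 1 of them. In GENCODE M21 the coding transcripts of Akp3 and Alpi were identical at 82.8% of 1627 aligned bases, and 6.82% of the 25-base words of the Akp3 transcript were also in that of Alpi (2.15% of 50-base words). Alppl2 was 79.6% identical to Akp3 and 82.3% to Alpi, with 1.99% of Akp3's and 2.55% of Alpi's 25-base words shared. Alpl was 66.9% to 67.8% identical to the others and shared no 25-base word with them. How the authors assigned reads that match several genes is not given in the sources used here, so the split between Akp3, Alpi and Alppl2 is uncertain to that extent, most of all for the low Alppl2, and the part of shared reads in the likeness of Akp3 and Alpi was not tested.

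Alppl2 varied from library to library more than between groups. It ran from 0.816 to 8.78 RPKM after 1,25D (median 8.18) and from 0.343 to 9.01 RPKM after vehicle (median 2.36) on the rescue diet. On the normal diet it ran from 0.386 to 10.6 RPKM after 1,25D (median 4.11) and from 0.283 to 4.44 RPKM after vehicle (median 1.71). Every group spanned from below 1 RPKM to above 4 RPKM. After 1,25D on the rescue diet only replicate 5 was below 1 RPKM (0.816), and under vehicle on the normal diet only replicate 3 was above 4 RPKM (4.44). Its log2 fold change after 1,25D was 1.27 on the rescue diet (SE 0.71, limma, adjusted p = 0.878) and 0.77 on the normal diet (SE 0.71, limma, adjusted p = 0.827). Without rescue 1,25D replicate 5 the first was 1.71 (limma, adjusted p = 0.366). The pseudogene Akp-ps1 was not analysed here.

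By likeness over the 24 libraries, the 5 genes nearest to Akp3 apart from the members were 4931406C07Rik (r 0.94), Ifi27l2b (0.92), Slc30a10, a manganese exporter (0.92), Ank, known for pyrophosphate export (0.92), and Maf, a transcription factor (0.92). Nearest to Alpi were Ifi27l2b (0.96), the MHC class I genes H2-Q1 and H2-Q2 (0.94 each), Ogdh, a subunit of a mitochondrial dehydrogenase (0.93), and Ncoa4, the receptor for ferritin breakdown (0.93). Nearest to Alpl were Apcdd1, an inhibitor of Wnt signalling (0.72), Cd53, a leukocyte tetraspanin (0.71), Bcl2a1b, a survival factor of blood cells (0.68), Flnc, a muscle filamin (0.67), and Il1rn, the antagonist of the interleukin-1 receptor (0.67). The genes nearest to Akp3 and Alpi had positive log2 fold changes after 1,25D on the normal diet, as likeness over libraries that include this comparison favours, among them Slc30a10 (3.17), Ifi27l2b (1.82) and Ncoa4 (1.73).

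Of the protein-coding genes that flank the chromosome 1 cluster, 5 on each side, 6 were tested and 1 was called. This was Ecel1, a membrane endopeptidase gene of neurons that follows Akp3. Its description here was chosen after its values were seen. Ecel1 had 0.64 to 1.03 RPKM after 1,25D on the normal diet (median 0.849), against at most 0.324 RPKM after vehicle, where 1 library listed it at 0. The groups did not overlap, though all values were low, and the log2 fold change was 1.24 (SE 0.17, limma, adjusted p = 0.000169). With the rescue diet the groups did not overlap either (as for 0.235% of genes tested), at 0.237 to 0.859 RPKM after 1,25D and 0.087 to 0.134 RPKM after vehicle, with a log2 fold change of 0.67 (SE 0.17, limma, adjusted p = 0.216). The other tested flanks, Ptma, Pde6d, Cops7b, Dis3l2 and Eif4e2, had log2 fold changes of 0.08, 0.42, 0.25, -0.11 and 0.24 on the normal diet, and none was called. Around Alpl, 6 flanking protein-coding genes were tested with limma, none was called, and none had an unadjusted p under 0.05 on either diet.

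Most genes that build and attach the GPI anchor did not pass the test. Of 30 tested genes 2 rose after 1,25D on the normal diet and 1 on the rescue diet, with median log2 fold changes of 0.09 and -0.05, against 0.05 and 0.06 for all genes tested. An unadjusted p under 0.05 (limma) was found for 4 and 2 of the 30. Of all genes tested limma called 1.78% and 0.14% higher on these diets, and 2393 and 966 of 20006 had an unadjusted p under 0.05. These shares also stand beside the counts of the lists below. The genes that rose both remodel the anchor after it is made. Pgap1, which removes an acyl chain from the anchor's inositol, had 11.2 to 17.3 RPKM after 1,25D on the normal diet (median 11.6), against 2.28 to 5.46 RPKM after vehicle (median 4.72). It had 11.7 to 15.6 RPKM after 1,25D on the rescue diet (median 13.3), against 4.06 to 5.59 RPKM after vehicle (median 5.06). The groups were apart on each diet, with log2 fold changes of 1.47 (SE 0.16, limma, adjusted p = 5.67e-06) on the normal and 1.36 (SE 0.16, limma, adjusted p = 2.97e-05) on the rescue diet.

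Mppe1, which removes an ethanolamine phosphate from the anchor, had 21.4 to 26.9 RPKM after 1,25D on the normal diet (median 22.7), against 10.1 to 16.3 RPKM after vehicle (median 12.4). The ranges were apart, and the log2 fold change was 0.87 (SE 0.14, limma, adjusted p = 0.000607). With the rescue diet it was 0.47 (SE 0.14, limma, adjusted p = 0.445). Pigk, the catalytic subunit of the transamidase that attaches the anchor, had a log2 fold change of 0.56 on the normal diet (adjusted p = 0.0916), and Pigyl one of 0.59 (adjusted p = 0.206).

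Of 6 genes that supply zinc to enzymes in the secretory pathway, 1 rose on the normal diet and none on the rescue diet (limma; 1 with an unadjusted p under 0.05 there), with medians of 0.07 and 0.20. The gene was Slc30a5, the zinc transporter that loads alkaline phosphatases in the early secretory pathway. It had 43.9 to 64.6 RPKM after 1,25D on the normal diet (median 58.2), against 21.1 to 40.9 RPKM after vehicle (median 35.5). The groups did not overlap, and the log2 fold change was 0.75 (SE 0.13, limma, adjusted p = 0.00154). Its partner Slc30a6 had 0.05 and the related transporter Slc30a7 0.08 on the log2 scale, and neither was called.

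Among phosphate transporters and their scaffold proteins, 6 of 9 were tested. After 1,25D limma called 2 higher on the normal diet and none on the rescue diet, with medians of 0.28 and 0.04. On the rescue diet 1 gene had an unadjusted p under 0.05 (limma), Slc20a1, which was lower after 1,25D (log2 fold change -0.40). The sodium-phosphate cotransporters Slc34a1, Slc34a2 and Slc34a3 were below the filter, with at most 0.54 RPKM in any library. Slc9a3r1, a scaffold of brush border transporters, had 126 to 174 RPKM after 1,25D on the normal diet, against 56.2 to 77.7 RPKM after vehicle, with no overlap (log2 fold change 1.20, SE 0.22, limma, adjusted p = 0.00318). Pdzk1, another such scaffold, had 29.9 to 56.3 RPKM after 1,25D, against 11.4 to 25.2 RPKM after vehicle (log2 fold change 1.08, SE 0.27, limma, adjusted p = 0.0338). The call of Pdzk1 was lost in 6 of 24 fits without 1 library (normal vehicle replicates 1 and 2, normal 1,25D replicates 2, 3, 4 and 6; adjusted p up to 0.0961), after quantile normalization (0.136) or median-of-ratios scaling (0.125), and with a covariate for epithelial (0.198) or pancreas (0.109) genes.

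The next list held 14 genes of extracellular nucleotide and pyrophosphate metabolism, several of which make or remove substrates of alkaline phosphatases. After 1,25D limma called 1 higher on the normal diet and none on the rescue diet, with medians of 0.26 and -0.13. On the rescue diet 1 gene had an unadjusted p under 0.05 (limma), Abcc6, which was lower after 1,25D (log2 fold change -0.68). Ank, known for its part in the export of pyrophosphate, had 20.4 to 26.2 RPKM after 1,25D on the normal diet, against 8.12 to 18.4 RPKM after vehicle, with no overlap (log2 fold change 0.90, SE 0.17, limma, adjusted p = 0.00444). Entpd5, a nucleotide diphosphatase, had a log2 fold change of 0.89 (adjusted p = 0.0722), and Enpp1, which makes pyrophosphate, one of 0.53 (adjusted p = 0.0906). Of 5 endotoxin recognition genes none was called by limma on either diet, and none had an unadjusted p under 0.05; Tlr4 was at 0.08 and Cd14 at -0.43 on the log2 scale on the normal diet.

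Other genes of the brush border were set beside the phosphatases, 14 hydrolases with the actin-bundling protein Vil1 and the adhesion protein Cdhr5. Of these 16, 4 rose, all of them hydrolases, on the normal diet and none fell, with a median log2 fold change of 0.79. Limma called 1.78% of all genes tested higher on that diet. There 12 of 16 had an unadjusted p under 0.05 (limma), against 2393 of 20006 genes tested. For the interaction 13 of 16 did, against 1371 of 20006, with a median of -1.14 and none called by limma. Limma called none on the rescue diet, where the median was -0.23. The 3 with an unadjusted p under 0.05 there (limma) were all lower after 1,25D, among them Enpep (log2 fold change -1.03) and Sis, the sucrase-isomaltase (-0.78). Lct, the lactase, had 68.9 to 238 RPKM after 1,25D on the normal diet (median 166), against 1.73 to 58.8 RPKM after vehicle (median 14.0), a log2 fold change of 3.25 (SE 0.70, limma, adjusted p = 0.012). With the rescue diet, which contains lactose, it had 7.40 to 122 RPKM after 1,25D (median 34.7), against 12.5 to 197 RPKM after vehicle (median 47.8), with a log2 fold change of -0.50 (adjusted p = 0.903).

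The other hydrolases that rose on the normal diet were Mep1a, a meprin metalloprotease (log2 fold change 1.46, SE 0.24, limma, adjusted p = 0.000857), Naaladl1, a peptidase (1.05, SE 0.25, adjusted p = 0.0252), and Treh, the trehalase (1.57, adjusted p = 0.0462). The call of Treh held in 9 of 24 fits without 1 library (adjusted p up to 0.129) and that of Naaladl1 in 18 of 24 (up to 0.0785, lost without normal vehicle replicates 3 and 4 and normal 1,25D replicates 2, 3, 4 and 5). Only 2 of the 4 calls were made with a covariate for epithelial genes and 1 with one for pancreas genes, where Lct had an adjusted p of 0.0758. Sis, the sucrase-isomaltase and a major disaccharidase, had a log2 fold change of 0.45 on the normal diet and was not called there. Of 10 villus tip genes 1 rose on the normal diet, Junb, a transcription factor of the AP-1 family (1.03, SE 0.24, limma, adjusted p = 0.0189), with a list median of 1.03. The call of Junb was lost without normal 1,25D replicate 6 (adjusted p = 0.0572) and with either covariate (0.149 and 0.164). The median on the rescue diet was -0.17, with none called by limma and none with an unadjusted p under 0.05. Of 10 enterocyte transcription factors limma called none on either diet, with 1 below an unadjusted p of 0.05 on the normal diet; Hnf4a had -0.02 and Klf4 0.52 on the log2 scale there.

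**Figure D4:**
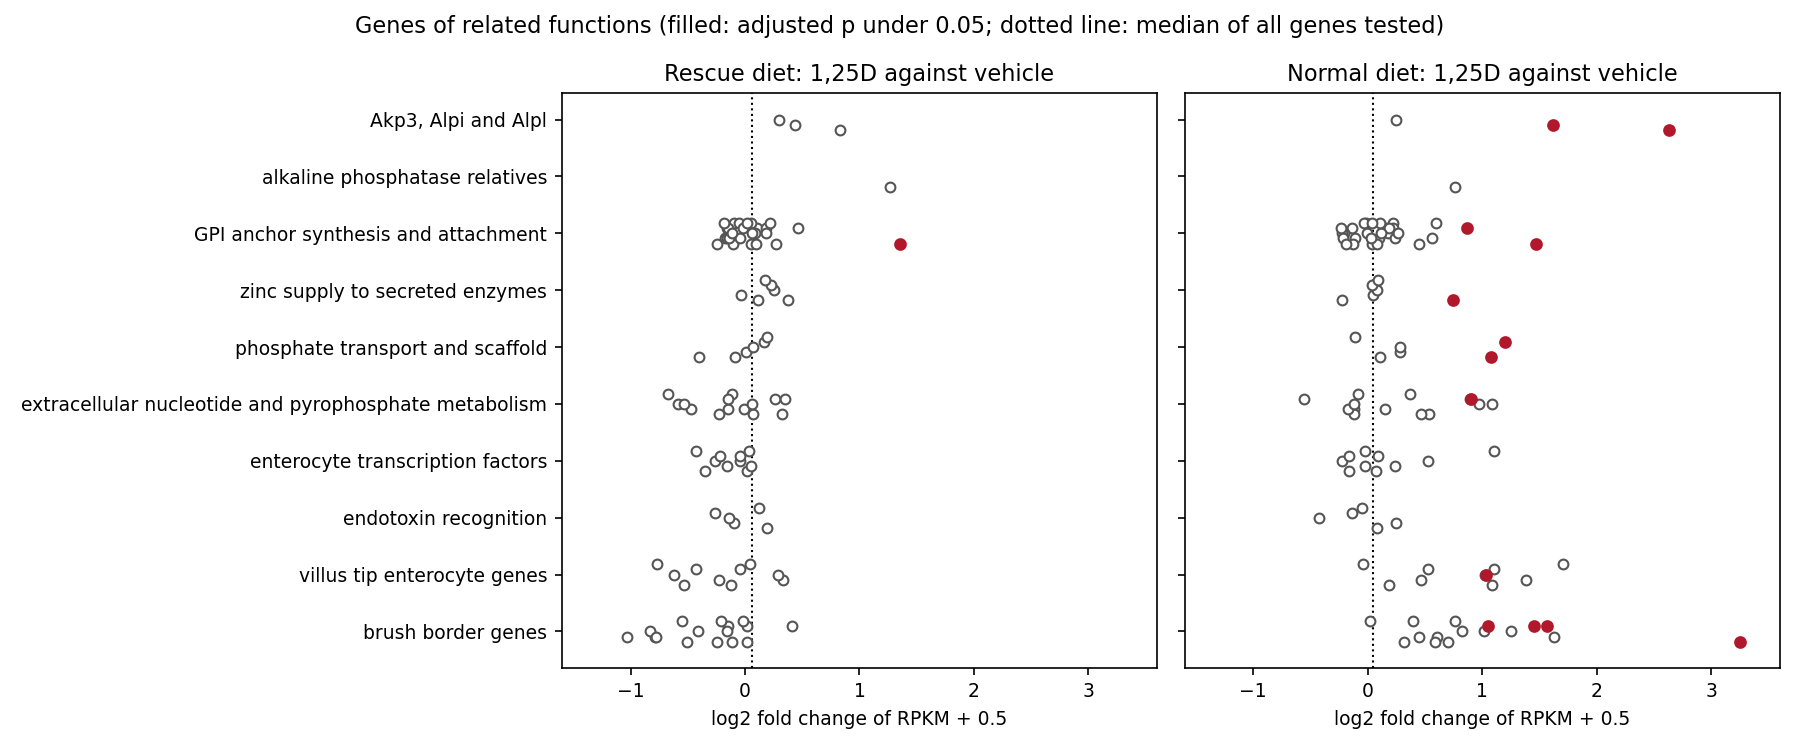
Log2 fold changes of RPKM + 0.5 after 1,25D against vehicle, on the rescue diet (left) and the normal diet (right), for the 3 members and for genes of 9 related lists; each point is a gene, filled where the adjusted p was under 0.05, and the dotted line is the median of all genes tested. On the normal diet the brush border genes have a median of 0.79 and the GPI anchor genes one of 0.09.

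Markers of other cell types were compared on the normal diet. The summed RPKM of 10 general epithelial genes, all detected, ran from 1942 to 2704 after 1,25D (median 2309), against 1493 to 2441 after vehicle (median 2052), and limma called none of the 10 (2 had an unadjusted p under 0.05). One of them, the brush border protein Vil1, had a log2 fold change of 0.70 (limma, adjusted p = 0.0916). Its groups did not overlap, at 223 to 277 RPKM after 1,25D and 127 to 221 RPKM after vehicle. Set against the epithelial sum, Akp3 was 25.7% to 43.7% of it after 1,25D and 1.69% to 14.8% after vehicle, still with no overlap. On the same measure Alpi had 14.5% to 28.7% after 1,25D and 3.70% to 12.7% after vehicle, with no overlap.

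On the rescue diet Akp3 was 9.56% to 36.9% of the epithelial sum after 1,25D and 5.03% to 21.5% after vehicle, and Alpi 8.85% to 22.3% after 1,25D and 5.50% to 15.7% after vehicle, with overlap for each. With the mean log2 level of the epithelial genes as a covariate, the log2 fold change on the normal diet was 2.36 for Akp3 (limma, adjusted p = 0.0233) and 1.31 for Alpi (limma, adjusted p = 0.0536), so the call of Alpi was lost.

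Crypt stem cell genes summed to 321 to 553 RPKM after 1,25D on the normal diet, against 402 to 878 RPKM after vehicle. Their median log2 fold change was -0.54, with none of 8 called by limma (4 had an unadjusted p under 0.05). Genes of Paneth cells, which also lie in the crypts, had a median of -0.49, with none of 6 called. On the rescue diet the medians were -0.34 for crypt stem cell genes and -0.50 for Paneth cell genes, with none called by limma. Genes of the exocrine pancreas, an organ that adjoins the duodenum, summed to 45.3 to 19810 RPKM after 1,25D and 2540 to 95678 RPKM after vehicle on the normal diet. Their median log2 fold change was -3.53, with none of 20 called by limma and 19 with an unadjusted p under 0.05. With a pancreas score as a covariate Akp3 stood at 2.57 (limma, adjusted p = 0.0202) and Alpi at 1.59 (limma, adjusted p = 0.0356). For rescue against normal diet under vehicle the pancreas genes had a median log2 fold change of -3.22, and for the interaction 3.15. With the pancreas score neither Akp3 nor Alpi was called by limma in those comparisons. The part of pancreas RNA in those values was not tested further. The part of crypt cells in the results on Akp3 and Alpi was not tested.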

How the data were processed

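RNA from 24 duodenum libraries (4 groups of 6, grouped by the diet and treatment labels) was depleted of ribosomal RNA and sequenced as directional libraries, per the labels' protocols. TopHat and the mm9 build are named in the submitters' processing notes; no source used here gives their roles and versions, the quantifying program, its annotation or its use of strand. Each library came with a deposited table of 30795 RPKM values made by the authors; entries sharing a symbol were summed. All else was computed here.

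limma 3.58.1 (R 4.3.3) was fitted to log2(RPKM + 0.5) with an intensity trend, a mean for each group and 20 residual degrees of freedom, for the 20006 genes with 0.5 RPKM or more in 6 or more libraries. p-values were two-sided and adjusted by Benjamini-Hochberg over all of these, with calls under 0.05; an adjusted p without a named tool is limma's. The log2(RPKM + 0.5) scale understates changes of low genes such as Alpl and Ecel1. The log2 ratio of Akp3 to Alpi was tested by exact permutation of the group labels within the libraries compared. The fit was tested on simulated data with independent normal noise and the same SD in every group for a gene. Those data lacked the unequal group spreads and the shared tissue variation of the real libraries. Depth was estimated from steps between low RPKM values over up to 510 genes, with GENCODE M21 lengths, and covers counting only. Promoters and gene order came from RefSeq, matched by symbol (4 of 4 genes of the family with a promoter); transcripts were aligned with Biopython 1.88. Python 3.11.15, numpy 2.4.6, pandas 2.3.3, scipy 1.17.1 and matplotlib 3.10.9 were used.

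Named genes were the members, Alppl2, Cyp24a1, up to 4 genes per list with the smallest unadjusted p over the comparisons of 1,25D with vehicle, and the 5 genes most like each member; of these the text names a part, and genes beside them (Ecel1 and its neighbours, Treh, Sis, Hnf4a, Slc30a6, the Slc34a genes) were picked after their values were seen. The members and the lists were chosen with earlier results of these data known. Alternatives covered pseudocount, filter, scaling between libraries, array weights, trend, replicate block, libraries in the fit and each library left out; 3 more (an epithelial covariate, a pancreas covariate, and leaving out the deepest and the shallowest library) were added after seeing the data.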

Additional observations from a re-analysis of the deposited data

Results flagged for a closer look

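In 20 groups of 6 libraries tested for a library far from the others (the 3 members, Alppl2 and the ratio of Akp3 to Alpi, each in 4 groups), 1 was found, and chance alone gives about 1 in 20. Alppl2 in rescue 1,25D replicate 5 was at 0.816 RPKM, while the other 5 libraries of its group lay between 6.07 and 8.78 RPKM. The same library was the lowest of its group for Akp3 (160 RPKM), Alpi (149 RPKM) and Cyp24a1 (92.1 RPKM); Akp3 and Alpi did not pass the same limit, and Cyp24a1 was not tested.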

How the results depend on the processing

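On the normal diet Akp3 was called after 1,25D in 24 of 24 fits without 1 library (2.24 to 2.90) and in 13 of 13 other settings (2.36 to 2.77). Alpi was called in 24 of 24 (1.40 to 1.78) and in 12 of 13; with the epithelial covariate it was 1.31 (adjusted p = 0.0536). In the other comparisons no setting brought a call of Akp3, Alpi or Alpl or turned the sign of Akp3 or Alpi.

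The sign of Alpl turned where its value was near 0. Diet after 1,25D gave -0.018 with a pseudocount of 1, -0.15 after quantile normalization and -0.030 after median-of-ratios scaling; diet under vehicle gave 0.01 (0.0079) after quantile normalization and 0.11 with array weights; the interaction gave -0.16 and -0.01 (-0.0094) under these. Fits without 1 library gave -0.16 to 0.25, -0.15 to 0.13 and -0.14 to 0.27 for these 3. Alpl's few reads limit its precision.

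Deviations of same-numbered libraries correlated at -0.00849 to 0.251 for 1,25D on the normal diet and -0.371 to 0.35 on the rescue diet, with 3 of 6 pairs over 0.1 in each, and 1 and 2 of 6 in the diet comparisons; since not every pair passed 0.1, the replicate number was not taken to pair them. With a replicate block Akp3 stayed at 2.63 (adjusted p = 0.00483) and Alpi at 1.62 (0.00837); the block changed no other call of a member. The log2 ratio of Akp3 to Alpi, 1.01, had an adjusted p of 0.125 by sign flips of pairs (exact p = 0.0312, the smallest that 64 flips give). Without 1 library the ratio difference was 0.84 to 1.16 on the normal diet, and on the rescue diet it was 0.31 to 0.48. It passed in 24 of 24 of these fits on the normal diet and in 2 of 24 on the rescue diet.

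For 1,25D on the normal diet 368 genes were called, against 138 with the epithelial and 133 with the pancreas covariate and 200 to 453 without 1 library (200, 228 and 236 without normal 1,25D replicates 3, 4 and 6, and 233 without normal vehicle replicate 1). On the rescue diet 29 were called, against 52 (quantile), 90 (array weights), 19 (no trend), 11 (only the groups compared), 61 (epithelial covariate) and 12 to 48 without 1 library. For diet after 1,25D the 2 calls became 1287 with array weights, 57 without the deepest and shallowest library, 0 to 4 in the other settings and 0 to 14 without 1 library. For the interaction the 1 call became 32 with array weights, 11 without the deepest and shallowest library, 0 to 2 otherwise and 0 to 17 without 1 library; for diet under vehicle 0 became at most 4. Of 16 brush border genes 2 were called with the epithelial and 1 with the pancreas covariate, and 8 when only the groups compared were fitted.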
